A study of Homo sapiens with 6 samples.

Results

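The cytosolic ribosomal protein genes encode the protein part of the ribosome outside mitochondria. Members were the genes whose symbol begins with RPL or RPS followed by a number and at most 1 of the letters A, X, Y and L, with or without a further number, together with RPSA, RPLP0, RPLP1 and RPLP2, and without the RPS6 kinases. Of 10660 gene names in 2 deposited RNA tables, 75 were members, 30 of the small subunit and 45 of the large subunit. The rule used names alone and no measured value. Rows were present for 74 members in ME-180 and for 75 in SiHa, with 74 in both, and RPS2 had a row only for SiHa. RPL10A, RPL35, RPL36 and RPS18 are among 11 further RefSeq names that fit the rule and are not analysed here.

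The series compared RNA from human cervical cancer cell lines with high and low p63, the TP63 product and a transcription factor of basal squamous epithelium. ME-180 cells gave a control library, named plko, and a library labelled knockdown, named shp63 (the shp63 library below), and SiHa cells gave a vector library and a p63 overexpression library. Each group was 1 library of cells grown with serum, and the number of clones, the time and the p63 isoform are not stated in the labels. A p63 chromatin immunoprecipitation of ME-180 cells was not used here. Both lines carry human papillomavirus.

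The tables summed to 10804272 counts in the ME-180 control, 10046579 in the shp63 library, 14207637 in the SiHa vector library and 13690639 in the overexpression library. TP63 had 5619 counts in the ME-180 control and 6 in the shp63 library, and 7 in the SiHa vector library and 179 with overexpression. The ME-180 pair stood apart in many genes besides TP63. All 6 squamous markers with a row were lower in the shp63 library, from a summed 75051 to 37.7 CPM (counts scaled to a table total of 1000000), all 6 general epithelial markers were lower (3659 to 132 CPM), and 6 of 7 mesenchymal and fibroblast markers were higher (135 to 223 CPM). In SiHa 6 of 7 squamous markers were higher (4208 to 9090 CPM), 1 of 9 epithelial markers was higher (2581 to 4656 CPM) and 2 of 6 mesenchymal markers were lower (55.1 to 33.3 CPM). TP63 itself is among the squamous markers counted in both lines. Immune markers summed to 52.1 and 5.87 CPM in ME-180 and to 126 and 139 CPM in SiHa. Over 1003 abundant genes outside the ribosomal set, the log2 ratio between the ME-180 libraries had an SD of 1.97, against 1.74 between the ME-180 control and the SiHa vector library and 0.28 within SiHa. The part of these differences in the ribosomal values was not tested. In RNA from whole cultures, fewer cells of a kind and less RNA per cell cannot be told apart.

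Ribosomal proteins bind ribosomal RNA in the nucleolus, and unassembled copies are degraded, which keeps the numbers that accumulate near equal. Most of their mRNAs start with a C followed by a run of pyrimidines, the terminal oligopyrimidine (TOP) motif, through which LARP1 and mTOR control their translation. RPL5 and RPL11, bound to the 5S ribosomal RNA, can also bind MDM2. RPL22L1 and RPL36A have close relatives, RPL22 and RPL36AL, that can take the same place in the ribosome.

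The starts of the members that the results turn on show the shared element of this gene family. Each sequence runs 5′ to 3′ on the gene's strand, from 60 bases before the annotated RefSeq start to 15 bases into the transcript, in the build GRCh38.p14. Capitals mark the unbroken run of C and T from the annotated start. RPL22L1 lies at chr3:170870181-170870255 on the minus strand, RPL36A at chrX:101390951-101391025 on the plus strand, RPS10 at chr6:34426055-34426129 on the minus strand and RPL24 at chr3:101686704-101686778 on the minus strand. These 4 were at least 2-fold higher in the shp63 library.
RPL22L1: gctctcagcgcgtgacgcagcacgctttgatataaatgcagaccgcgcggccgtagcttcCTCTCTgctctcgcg
RPL36A: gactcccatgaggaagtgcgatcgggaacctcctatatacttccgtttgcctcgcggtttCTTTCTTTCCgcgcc
RPS10: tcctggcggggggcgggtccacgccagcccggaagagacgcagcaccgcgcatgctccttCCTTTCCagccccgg
RPL24: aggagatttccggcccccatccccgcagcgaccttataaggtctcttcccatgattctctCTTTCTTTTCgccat

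RPS24 lies at chr10:78033803-78033877, RPL7A at chr9:133348158-133348232, RPL35A at chr3:197950130-197950204 and RPL31 at chr2:101002229-101002303, all on the plus strand. The first 3 were lower in the shp63 library, and RPL31 was the lowest member in SiHa.
RPS24: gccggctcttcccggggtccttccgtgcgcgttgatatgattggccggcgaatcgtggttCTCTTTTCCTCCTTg
RPL7A: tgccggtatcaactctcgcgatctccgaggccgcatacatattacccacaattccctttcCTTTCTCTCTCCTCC
RPL35A: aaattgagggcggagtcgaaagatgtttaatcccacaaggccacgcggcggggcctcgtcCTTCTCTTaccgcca
RPL31: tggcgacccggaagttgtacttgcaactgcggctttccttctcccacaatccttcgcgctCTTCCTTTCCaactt

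Pyrimidine starts were thus found on genes at both ends of the range. Among the lower members in ME-180, RPS29 and RPL19 lacked such a start. RPL3 at chr22:39319609-39319683 and RPS4X at chrX:72277234-72277308, both on the minus strand and both higher in the shp63 library, show starts that do not meet the rule used here, a C at the annotated start followed by at least 4 more pyrimidines.
RPL3: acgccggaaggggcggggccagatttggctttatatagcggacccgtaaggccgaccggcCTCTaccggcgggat
RPS4X: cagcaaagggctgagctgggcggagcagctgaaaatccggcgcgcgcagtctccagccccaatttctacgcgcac

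A promoter was matched for 59 of the 75 members, and RPL5, RPL37 and RPS20 were among those without a match. The pyrimidine start was present in 40 of 59 members (67.8%) and in 1104 of 27305 RefSeq promoters (4.04%). The run of those 40 members had a median of 8 bases and reached 19 in RPL39. The members with the element had a median ME-180 log2 ratio of 0.47 and 5 of 40 were at least 2-fold higher. The 19 without it had a median of 0.55 and 3 at that fold. Over all genes the median was 0.28 and 28.2% were at that fold. In SiHa the medians were -0.17 with the element and -0.13 without it. Presence of these letters at the annotated start therefore did not separate the higher from the lower members. The starts in use in these cells were not measured, so no conclusion on the TOP motif itself can be drawn.

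Other letters searched on both strands, from 250 bases before the start to 50 after it, differed in how often they occurred. CCGGAAG, the core read by ETS factors, was in 20 of 59 members (33.9%) and in 10.7% of all promoters. The E-box CACGTG, read by MYC and its partners, was in 3 of 59 (5.08%) and in 7.43% of all, and TATAAA was in 6 of 59 (10.2%) and in 12.0% of all. Of these the ETS core was more frequent among members than among all promoters. No motif contains another, a match is no proof of binding, and no match says only that these letters are not in these windows.

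In ME-180 the members as a group were slightly higher in the shp63 library, with a few genes well above the rest. The ratio of CPM was taken on the log2 scale after adding 1 CPM. Genes counted as higher or lower from 2-fold on, given at least 1 CPM in either library. Each gene was read from its transcript with the highest summed CPM. Of 74 members, 11 were higher, against 28.2% of all 6783 genes at that level, and 0 were lower, against 20.6%. The median log2 ratio was 0.44 over members and 0.28 over all genes, and 62 of 74 members lay above 0, against 58.4% of all genes. With TMM scaling (trimmed means), which puts the all-gene median at 0.00, the members' median was 0.16, with 3 higher (22.0% of all genes), 1 lower (24.4%) and 48 above 0 (50.1%). DESeq2 size factors gave 3 higher (22.1%) and 1 lower (24.3%), and the authors' deposited log2 fold change 3 higher (24.4%) and 2 lower (26.6%). With the squamous marker rows left out of the total, 6 were higher (25.3%) and 0 lower (22.4%). The members' median lay 0.16 above the all-gene median with the table total, TMM, DESeq2 size factors and the squamous rows left out, and 0.13 above it by the authors' deposited values, so the scaling moved both medians together and changed the number of members past 2-fold.

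The spread among members was narrow for this pair of libraries. The SD of the log2 ratio over the 74 members was 0.50, against 2.04 over 1152 other genes with a mean of at least 100 CPM. Those other genes reached log2 ratios of -11.3 and 7.51, since the mean admits genes abundant in only 1 library. The quartiles differed less, at 0.14 and 0.73 over the members and -0.61 and 0.91 over the other genes. Among those other abundant genes 21.6% were at least 2-fold higher and 19.1% lower. Small and large subunit genes had nearly the same medians, 0.44 over 29 genes and 0.45 over 45. Of these, 3 small subunit genes and 8 large subunit genes were at least 2-fold higher.

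**Figure D1:**
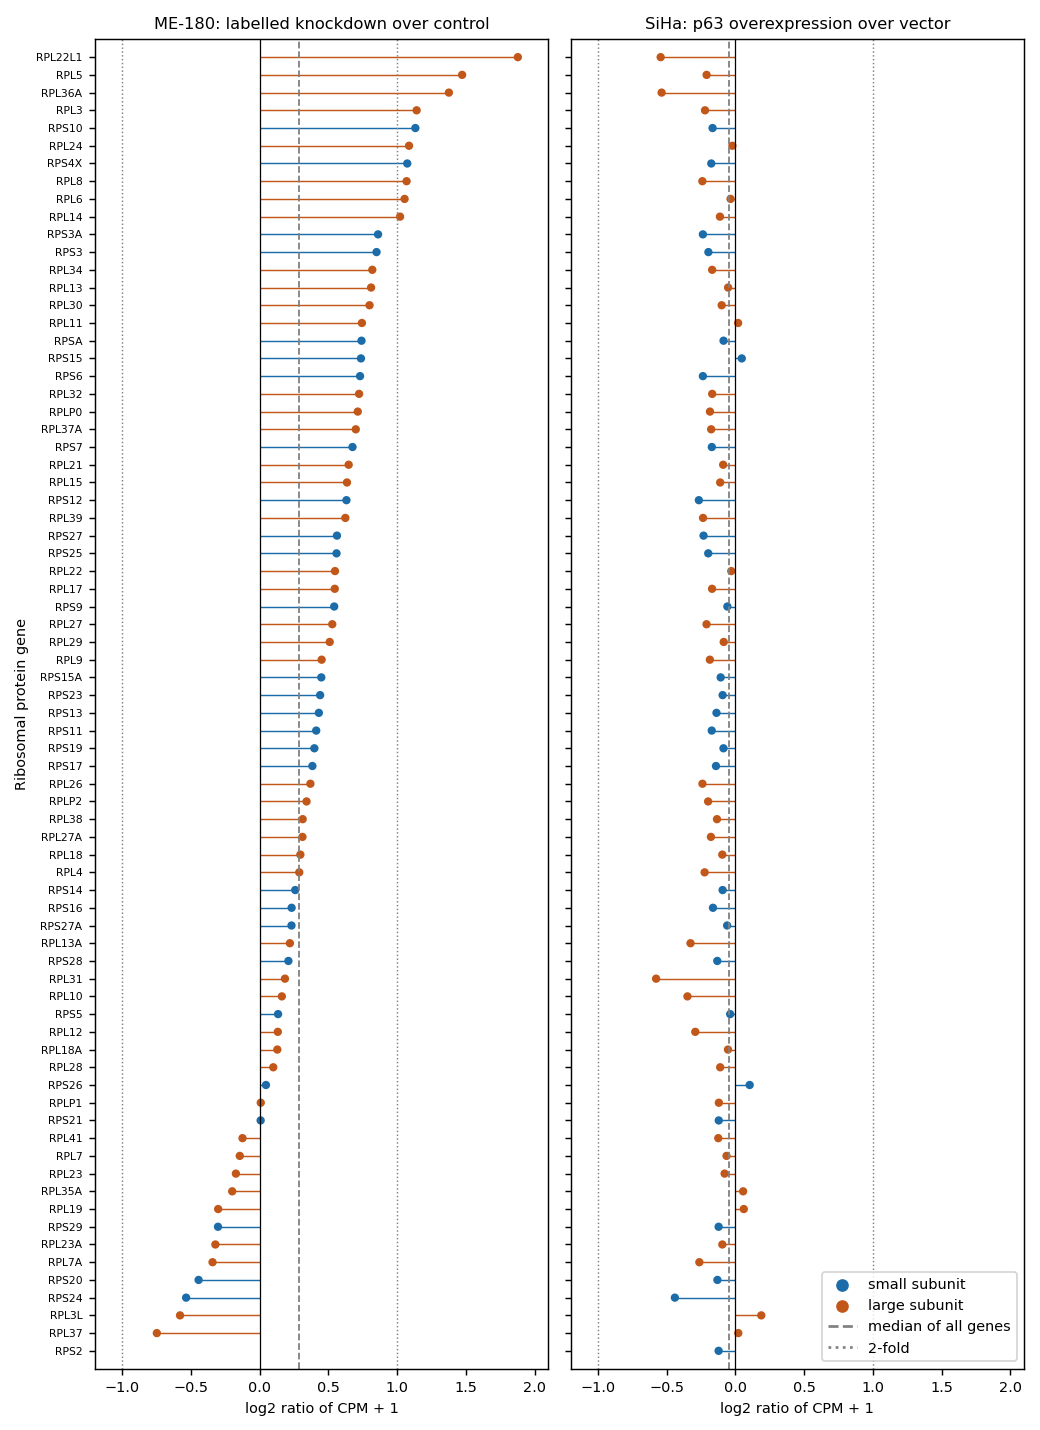
Log2 ratio of CPM plus 1 for 74 of the 75 members, in ME-180 (left, shp63 over control) and SiHa (right, p63 overexpression over vector), in the order of the ME-180 ratio, with RPS2 measured only in SiHa. Points are single pairs of libraries, the dashed line is the median of all genes, the dotted lines mark 2-fold, and 10 of the members drawn pass the right dotted line in ME-180 and 0 in SiHa.

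RPL22L1, the relative of RPL22, showed the highest ratio of all members. It had 1804 counts in the ME-180 control and 6195 in the shp63 library, 3.69 times as high in CPM (95% interval 3.50 to 3.89, log2 1.88). In SiHa it went the other way, with 2524 counts in the vector library and 1663 with p63 overexpression, 1.46-fold lower (1.37 to 1.56, log2 -0.54). These intervals are exact conditional binomial intervals and cover counting error only. RPL22L1 was thus high in the shp63 library and low in the other 3.

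RPL22 itself moved less. It had 19844 and 26973 counts in ME-180 (log2 0.55) and 20708 and 19532 in SiHa (log2 -0.03). RPL22L1 counts were therefore 9.09% of RPL22 counts in the ME-180 control and 23.0% in the shp63 library. In SiHa they were 12.2% with vector and 8.51% with p63 overexpression. Counts are not scaled to transcript length, so the change of such a percentage can be read, but not its level.

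RPL36A and RPL36AL, which encode almost the same protein, parted in opposite directions. RPL36A had 3532 counts in the ME-180 control and 8543 in the shp63 library, a ratio of 2.60 (2.50 to 2.71, log2 1.38). RPL36AL, whose name falls outside the rule for members, had 7267 and 4800 counts (log2 -0.49). RPL36A counts were 48.6% of RPL36AL counts in the control and 178% in the shp63 library. In SiHa, RPL36A had 3247 counts with vector and 2151 with p63 overexpression, 1.45-fold lower (1.38 to 1.54), RPL36AL had 9087 and 9578, and the percentage went from 35.7 to 22.5. Both relatives named here were thus higher in the shp63 library and lower with p63 overexpression, relative to their partners. Reads of such similar genes can be assigned to either copy, and how the authors counted them is not stated.

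**Figure D2:**
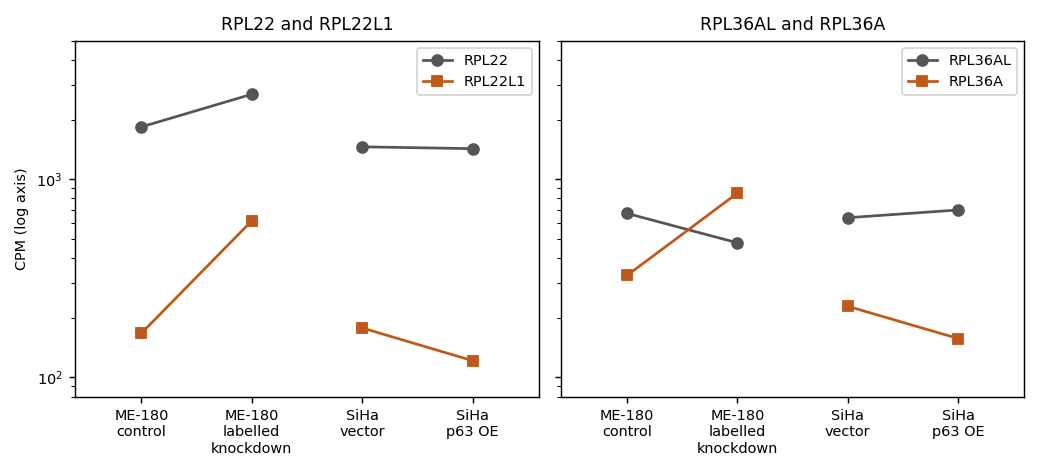
CPM by table total (log axis) of RPL22 and RPL22L1 (left) and of RPL36AL and RPL36A (right) in the 4 libraries, each point 1 library, with lines joining the libraries of 1 cell line. Within ME-180, RPL22L1 and RPL36A are higher in the shp63 library than in the control, and RPL36AL is lower.

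RPL3L, the striated muscle relative of RPL3, was near 0 in every library. It had 15 and 6 counts in ME-180, an interval of the ratio that includes 1 (0.137 to 1.17), and 1 and 3 counts in SiHa, below the minimum of 1 CPM.

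The 5S particle genes were both higher in the shp63 library. RPL5 counts were 31571 in the control and 81496 in the shp63 library, a ratio of 2.78 (2.74 to 2.81, log2 1.47). RPL11 had 18629 and 29007 counts, a ratio of 1.67 (1.64 to 1.71, log2 0.74), under 2-fold. In SiHa, RPL5 had 38326 counts with vector and 31923 with p63 overexpression (log2 -0.21) and RPL11 had 22823 and 22287 (log2 0.02). The proteins join the particle in equal numbers, while the mRNA ratios of these genes differed in ME-180.

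The genes of the RPL5-RPL11-MDM2 axis had mixed ratios in ME-180, and MDM2 itself was not analysed there. Of 4 genes, 2 were higher and 1 was lower (28.2% and 20.6% of all genes). MDM4, the relative of MDM2, went from 285 to 820 counts (log2 1.59), and CDKN2A, which encodes the MDM2 inhibitor ARF and the cell cycle inhibitor p16, from 1714 to 3906 (log2 1.29). CDKN1A, which encodes the cell cycle inhibitor p21, went from 2514 to 835 (log2 -1.47). In SiHa 0 of 5 genes of this list passed 2-fold (0.572% of all genes higher and 0.743% lower). CDKN1A was the furthest from 0 there (831 to 1233 counts, log2 0.61).

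Other members called higher in ME-180 came from both subunits. RPL3, which lies near the peptidyl transferase centre, had 38734 and 79483 (log2 1.14). RPS10, near the mRNA entry, had 8585 and 17514 (log2 1.13). RPL24, which bridges the subunits, had 18071 and 35693 (log2 1.09), and RPS4X, the X-linked copy of eS4, 55520 and 108654 (log2 1.07). RPL8, RPL6 and RPL14 of the large subunit followed with log2 ratios of 1.07, 1.05 and 1.02. In SiHa these 7 genes lay between -0.24 (RPL8) and -0.02 (RPL24), so none of them was far from the other members.

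Of the 11 genes, RPL22L1, RPL5 and RPL36A stayed at least 2-fold higher under all 12 alternatives tried. RPL3 and RPS10 fell below 2-fold in 3 of the 12, and RPL24, RPS4X, RPL8, RPL6 and RPL14 in 4. In the authors' deposited table the same 3 genes had an adjusted p below 0.05 and a higher value. These adjusted p-values were 0.000926 for RPL22L1, 0.0173 for RPL5 and 0.0311 for RPL36A. Over all its genes, 17.5% were higher and 20.2% lower at this threshold. The table rests on the same 2 libraries, without replicates, so it is not separate evidence.

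With each gene read from its transcript of highest summed CPM, RPL37 was the lowest member in ME-180. Its counts were 53667 in the control and 29680 in the shp63 library, 1.68-fold lower (1.66 to 1.71, log2 -0.75). With TMM scaling its log2 ratio was -1.03. In the authors' deposited table, among the transcripts used here, it was the only lower member with an adjusted p below 0.05 (0.0287). In SiHa it had 42503 counts with vector and 41539 with p63 overexpression (log2 0.02). RPL37 thus differed within ME-180 and hardly within SiHa.

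Other members with lower values in ME-180 had smaller differences by the same choice of transcript. RPS24 had 23725 and 15209 counts (log2 -0.54), the mildest of its 5 transcript rows, which reached -1.36. RPS20 had 27693 and 18908 (log2 -0.45) and RPL7A 94401 and 69158 (log2 -0.34). RPL23A, which lies at the exit of the peptide tunnel, had 35294 and 26230 (log2 -0.32), and RPS29 and RPL19 had log2 ratios of -0.30 each. RPL35A had 39487 and 31944 (log2 -0.20), and RPL23, RPL7 and RPL41 lay between -0.17 and -0.13. With RPL37 and RPL3L these were all 12 members below 0 in ME-180.

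The stalk proteins, which recruit elongation factors to the ribosome, showed unequal ratios. RPLP0, the base of the stalk, had 33659 and 51317 counts in ME-180 (log2 0.71), and RPLP2 had 27020 and 31810 (log2 0.34). RPLP1 had 45084 and 42129 (log2 0.01), which became -0.27 with TMM scaling. In SiHa the log2 ratios were -0.19 for RPLP0, -0.12 for RPLP1 and -0.20 for RPLP2. The 3 genes were close to each other in SiHa and spread over 0.71 log2 units in ME-180.

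RPS24, a small subunit gene with alternatively spliced 3′ exons, was the member whose transcripts differed most in ME-180. Several transcripts were listed for 22 members in ME-180, and the median range of the log2 ratio within a gene was 0.07. The range was 0.83 for RPS24 and 0.20 for RPL17, the next. In SiHa the ranges were smaller, at 0.17 for RPL28, 0.13 for RPL17 and 0.09 for RPS24. Transcript rows of 1 gene share reads, so the rows are not independent. The row NM_001142282.1 had 21114 counts in the ME-180 control and 7634 in the shp63 library (log2 -1.36), while NM_001142284.1 had 13441 and 7790 (log2 -0.68). The first row was thus 1.57 times the other in the ME-180 control and 0.980 times in the shp63 library. In SiHa it was 1.03 times the other in both libraries, 4500 against 4388 counts with vector and 3304 against 3193 with p63 overexpression. The ratio of these rows thus set the ME-180 control apart from the other 3 libraries. NM_001026.4, the row with the most counts, was 1.77 and 1.95 times NM_001142284.1 in ME-180 and 2.53 and 2.46 times in SiHa. The share of the NM_001026.4 row was thus larger in SiHa, and p63 overexpression left it nearly where it was.

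**Figure D3:**
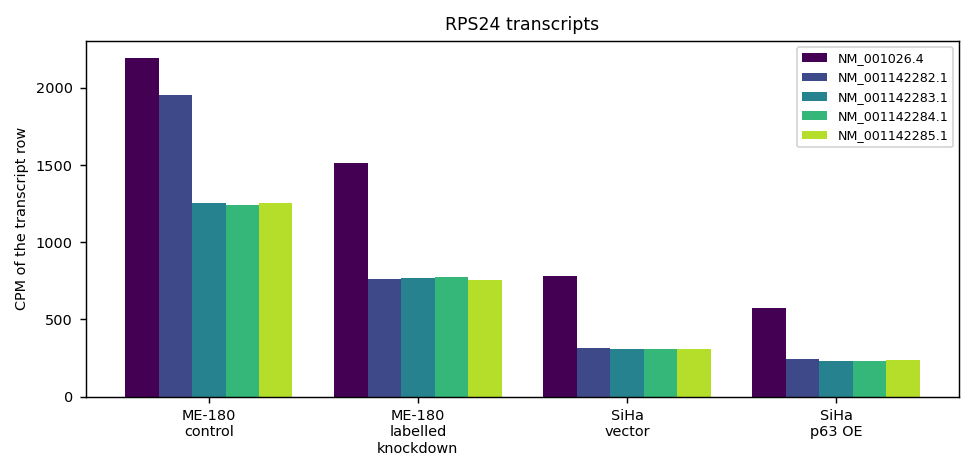
CPM of the 5 RPS24 transcript rows in the 4 libraries, each bar 1 row of 1 library, with no replicates. NM_001142282.1 stands above the 3 rows beside it in the ME-180 control (21114 counts against 13441 for NM_001142284.1) and level with them in the other 3 libraries.

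In SiHa, p63 overexpression came with slightly lower values across nearly all members and no large change in any. Of 74 members with at least 1 CPM, 0 were 2-fold higher (0.572% of all 6995 genes) and 0 were 2-fold lower (0.743%). The median log2 ratio was -0.14 over members and -0.05 over all genes, and 68 of 74 members lay below 0, against 57.4% of all genes. Over 1186 other genes with a mean of at least 100 CPM the median was 0.02 and 0.169% were 2-fold higher. With TMM scaling the members' median was -0.09 and 64 of 74 lay below 0, against 50.7% of all genes. An adjusted p below 0.05 in the authors' deposited table was found for 0 members (0.0843% of all genes higher and 0.0738% lower), and every member's value was 1.

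The members moved as a tight group in SiHa, with an SD of 0.13 against 0.19 over the other abundant genes. The small subunit median was -0.14 and the large subunit median -0.15. RPL31, at the exit of the peptide tunnel, had 14855 counts with vector and 9586 with p63 overexpression, 1.49-fold lower (1.46 to 1.53, log2 -0.58). It was followed by RPL22L1 and RPL36A (both log2 -0.54), RPS24 with 11091 and 7868 counts (log2 -0.44), RPL10 (log2 -0.35) and RPL13A (log2 -0.33). RPL10, which is among the last proteins to join the large subunit, had 7052 and 5330 counts, and RPL13A 22450 and 17240. These 6 genes were the lowest members in SiHa, and RPL12 followed at -0.29 without a clear break.

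Only 6 members at the 1 CPM minimum lay above 0 in SiHa. RPS26, which contacts the mRNA near its exit, had 14535 and 15047 counts (log2 0.10). RPL19 had 29203 and 29348 (log2 0.06), RPL35A 27115 and 27156 (log2 0.06) and RPS15 40080 and 39867 (log2 0.05). RPL37 and RPL11 were at 0.02 each. RPS2, which was measured only in SiHa, had 188540 and 166861 counts (log2 -0.12), close to the median of the group.

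Ratios of the members in the 2 cell lines were only weakly related. Across 73 members, without RPL3L, Pearson's r between the ME-180 and the SiHa log2 ratios was -0.26 and Spearman's rho -0.19. Without RPL22L1 and RPL36A the values were -0.06 and -0.13 over 71 members, so Pearson's r came mostly from that pair of genes and Spearman's rho moved less. Genes are not replicates, all points of 1 axis come from the same pair of libraries, and the 2 comparisons share no library. RPS24 and RPL7A were lower in both, with log2 ratios of -0.54 and -0.34 in ME-180 and -0.44 and -0.26 in SiHa.

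The 74 shared members took up a larger part of the counts in ME-180 than in SiHa by table totals, but the tables do not hold the same genes. They made up 20.9% of the ME-180 control table and 28.3% of the shp63 library, and 14.2% and 12.8% of the SiHa tables. Over the 13206 transcripts with a row in both tables, the shares were 21.0% and 28.4% in ME-180 and 20.5% and 18.6% in SiHa. On this common base the ME-180 control and the SiHa vector library were alike, the shp63 library was highest and the overexpression library lowest. KRT5, the main basal keratin, held 6.29% of the ME-180 control table and 0.00238% of the shp63 library. With the squamous markers left out of the total, the members' median in ME-180 was 0.33, against 0.16 over all genes.

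On the same common base the members' levels could be compared between lines gene by gene. The median log2 ratio of the ME-180 control over the SiHa vector library was 0.03 over 73 members, without RPL3L, and that of the shp63 library over SiHa vector was 0.52. RPL13 was the furthest below 0 in the first comparison, at -1.55, and it remained lowest in the second, at -0.74. RPL8 and RPLP0 were next in the first comparison, at -0.90 and -0.67. RPL7 and RPS24, both at 0.97, and RPL10, at 0.94, were the furthest above 0. Of the 73 members, RPL13 was the 1 gene beyond 2-fold, on the lower side, where 23.2% of all genes on this base lay.

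Over SiHa vector, the shp63 library had 7 members at least 2-fold higher (19.0% of all genes on this base), where the ME-180 control had 0 (16.7%). They were RPL36A (1.37), RPL22L1 (1.27), RPS6 (1.26), RPS3A (1.14), RPL10 (1.10), RPS7 (1.06) and RPL5 (1.06). RPL36A was at -0.01, RPL22L1 at -0.61 and RPL5 at -0.41 in the control over SiHa vector. RPS6, the target of the S6 kinases, was already at 0.53 and RPL10 at 0.94. RPL37 stood at 0.21 in the control and -0.54 in the shp63 library. The SD over the members was 0.44 in the first comparison and 0.40 in the second. The same SiHa library stands in both, so they are not independent.

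**Figure D4:**
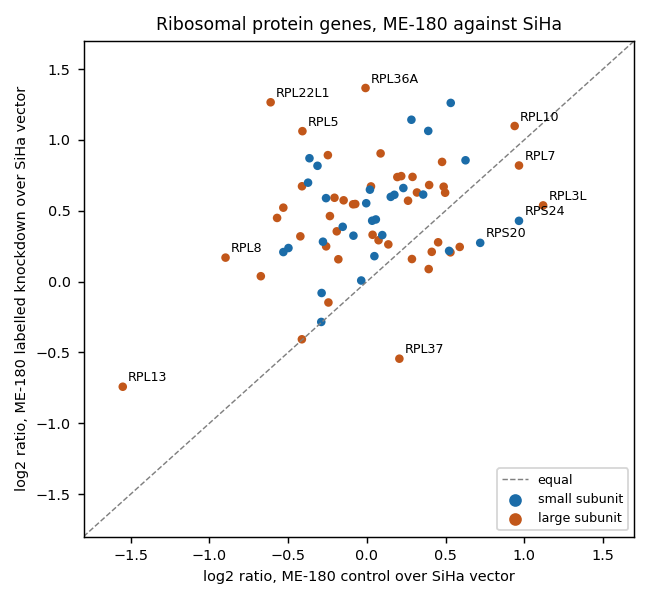
Log2 ratio of each shared member over the SiHa vector library, for the ME-180 control (horizontal axis) and the shp63 library (vertical axis), scaled to the total of the transcripts in both tables, with blue for the small and orange for the large subunit. Most points lie above the dashed line of equal ratios, RPL22L1, RPL5 and RPL36A furthest above it and RPL37 furthest below.

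Most measured genes that build the ribosome were higher in the shp63 library. Of 62 listed ribosome biogenesis genes 13 had a row in ME-180, with 8 at least 2-fold higher and 1 lower, a median log2 ratio of 1.37. RRP12, a nuclear export factor of ribosomal subunits, had 225 and 1436 counts (log2 2.72), NHP2, of the box H/ACA particles, 1191 and 3998 (log2 1.84), and DDX21, a nucleolar helicase, 2469 and 7556 (log2 1.71). EBNA1BP2 was the lower gene, with 3683 and 1519 counts (log2 -1.17). With TMM scaling the same numbers of higher and lower genes were counted, at a median of 1.10. In SiHa 0 of 14 genes passed 2-fold, the median was 0.00, and DDX21 was at -0.50 (2700 to 1841 counts). Over all genes the shares called higher and lower were 28.2% and 20.6% in ME-180, and only 0.572% and 0.743% in SiHa.

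Other genes of the translation machinery had smaller differences in ME-180. Over all genes 28.2% were at least 2-fold higher and 20.6% lower, with a median of 0.28. Of 15 RNA polymerase I genes 7 had a row, with a median of 0.82 and 1 called higher, TAF1A (46 and 100 counts, log2 1.06), which was not called with TMM scaling. Of 30 initiation factor genes 11 had a row, with a median of 0.50 and 2 higher, EIF2B3 (177 and 414 counts, log2 1.28) and EIF3B (3669 and 7761 counts, log2 1.18). EIF4A1, the cap-bound helicase, had 9351 and 16559 counts (log2 0.93). In SiHa both lists had 0 genes at 2-fold (0.572% of all genes higher and 0.743% lower). Their medians were -0.20 over 7 genes and 0.09 over 16, against -0.05 over all genes.

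Genes outside the ribosome whose mRNAs carry TOP motifs had medians on the same side of 0 as the members in both pairs. The all-gene medians lay on these sides too, at 0.28 in ME-180 and -0.05 in SiHa. In ME-180 7 of 23 had a row and 0 passed 2-fold (28.2% of all genes higher and 20.6% lower). The median was 0.71, or 0.43 with TMM scaling. EEF1B2, an elongation factor subunit, had 3961 and 6771 counts (log2 0.88), EIF3L 3041 and 4944 (log2 0.80) and NPM1, a nucleolar chaperone, 16598 and 25188 (log2 0.71). In SiHa 16 genes had a row, 14 lay below 0 (57.4% of all genes) and the median was -0.16, beside -0.14 for the members. EIF3E had 7055 and 5475 counts (log2 -0.31), HNRNPA1 27324 and 21857 (log2 -0.27) and EEF1A1, the main elongation factor, 315977 and 272239 (log2 -0.16). FAU, which also encodes a ribosomal protein, was at 0.05 in SiHa.

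Regulators of ribosomal protein production were split in ME-180, with 2 higher and 2 lower of 7 genes (28.2% and 20.6% of all genes) and a median of 0.10, or -0.18 with TMM scaling. RPS6KA2, which encodes an S6 kinase of the RSK family, had 142 and 658 counts (log2 2.23), and RPS6KA1, of the same family, 2154 and 632 (log2 -1.65). TSC2, which restrains mTOR, had 558 and 1547 (log2 1.56). MYC was not analysed in ME-180, and MYCN had 38 and 2 counts. In SiHa 0 of 8 genes passed 2-fold (0.572% of all genes higher and 0.743% lower), and the median was -0.13. MYC, which activates ribosomal protein and biogenesis genes, had 3063 counts with vector and 2100 with p63 overexpression (log2 -0.49). Mitochondrial ribosomal protein genes, read here for comparison, had a median of 0.43 over 3 genes in ME-180 and 0.12 over 6 in SiHa. At 2-fold there were 0 in either line, beside the same all-gene shares.

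**Figure D5:**
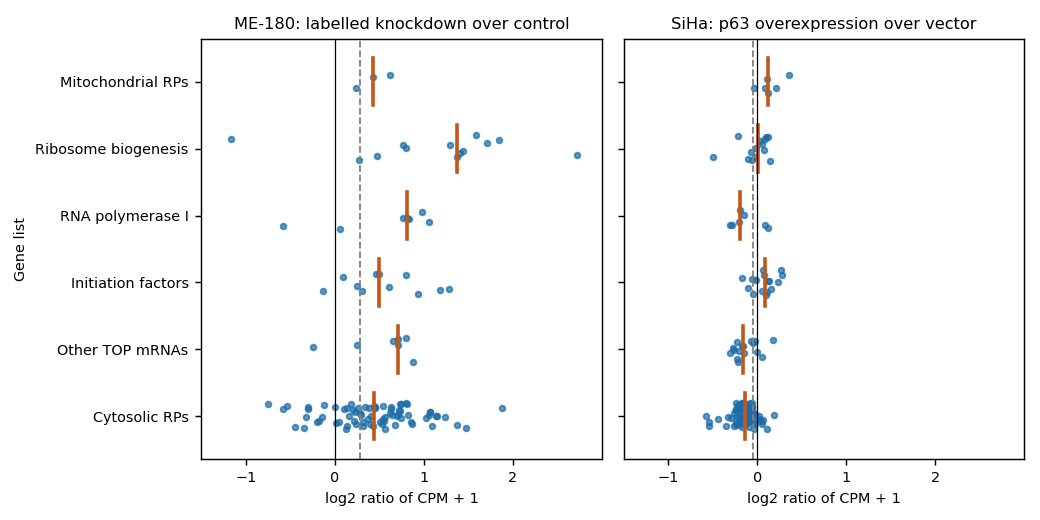
Log2 ratio of CPM plus 1 for the genes of each list in ME-180 (left) and SiHa (right), with 1 point per gene, an orange bar at the list's median and a dashed line at the median of all genes. Ribosome biogenesis genes have the highest median in ME-180 (1.37), and the cytosolic ribosomal proteins (0.44) lie near the initiation factors (0.50).

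Many ribosomal protein genes have processed pseudogenes elsewhere in the genome, and reads of such copies can be added to or lost from the parent gene by the counting step. Each group was 1 library, so no difference could be tested against the spread between cultures. Counts were large for 73 of the 74 members in ME-180, each with a mean of at least 100 CPM, so counting error was small. The number of libraries and the assignment of reads remain as limits.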

How the data were processed

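RNA was measured in 4 libraries, grouped by title with 1 per group: a control (plko) and a labelled knockdown (shp63) of ME-180, and SiHa with vector or p63. The authors deposited raw counts per RefSeq transcript, with a log2 fold change and p-values of their own, in 1 table per line. The submitters' processing notes name TopHat, Cufflinks, DESeq2 and hg19, without roles. Strand setting and counting method: not given in the sources used here. Peak positions on hg19 were not used, since the gene starts at hand were on GRCh38.p14.

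Counts were scaled to a table total of 1000000 (CPM). The transcript with the highest summed CPM stood for each gene. Ratios used a pseudocount of 1 CPM, a minimum of 1 CPM in 1 library and a 2-fold threshold. With 1 library per group no test was run, and exact 95% intervals of ratios cover counting error only. Medians of lists stand beside those of all genes. Promoter sequences came from RefSeq and were matched by symbol. The calling rule was tested on simulated data.

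Members and lists were chosen with earlier results of these data known. Named genes were paralogs, the 5S particle, the stalk, the 6 highest and 6 lowest ratios per experiment among members with at least 100 counts, any other member, and up to 3 genes with the largest ratio of each other list. TP63, KRT5, MYCN, EBNA1BP2 and FAU were named beyond this. A few genes enter the counts and medians but are not reported here by name. Alternatives were other pseudocounts, minimums, transcripts and scalings, with TMM from edgeR 4.0.16 and size factors from DESeq2 1.42.0 in R 4.3.3, and the authors' log2 fold change. Other steps ran in Python 3.11.15.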

Additional observations from a re-analysis of the deposited data

How the results depend on the processing

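No paired analysis was possible because each group was 1 library, and no library could be left out. In ME-180 the 11 members called higher became 3 with TMM scaling, 3 with DESeq2 size factors, 3 by the authors' deposited log2 fold change and 6 with the squamous marker rows out of the total, a setting chosen after seeing the data. The 0 called lower became 1, 1 and 2 in the first 3 of these and 1 with a pseudocount of 0.1. The all-gene shares called went from 28.2% higher and 20.6% lower to 22.0% and 24.4% with TMM scaling. The median of 0.44 became 0.16 with TMM, 0.17 with DESeq2 size factors, 0.12 by the authors' values, 0.33 without the squamous rows and 0.63 with the member rows out of the total. In SiHa the median of -0.14 became -0.092, -0.097 and -0.098 with TMM, DESeq2 and the authors' values. No setting turned the sign of the members' median in either line.

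The summed CPM of shared members, in the order ME-180 control, shp63, SiHa vector and overexpression, was 208936, 283297, 141921 and 128498. Scaled to the transcripts in both tables the sums were 209879, 284232, 205115 and 186382. Adding all transcripts of a name gave 248313, 337577, 168397 and 152397, and leaving member rows out of the total gave 277957, 427667, 174185 and 154432. The median ratio of ME-180 control over SiHa vector was 0.56, then 0.035 on the common transcripts and 0.68 without member rows. Rows absent from the ME-180 table, such as RPS2, raise its CPM, so the gene-by-gene ratios between lines were taken on the common transcripts.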
